A study of Mus musculus with 6 samples.

Results

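Treatment with the complement protein C1q was accompanied by lower mRNA of the cholesterol synthesis pathway in fibro-adipogenic progenitors, and the results below follow 31 genes of SREBP-controlled cholesterol and fatty acid synthesis among the 16671 genes measured. The 31 were taken by gene symbol from a list of pathway members, and all were present in the table. The choice rule names genes and uses no measured value, but the list was drawn up with earlier results of these data known. They fall into 7 enzymes of the mevalonate steps, 11 enzymes of the squalene and sterol steps, 5 regulators and transport proteins, and 8 enzymes of fatty acid synthesis and desaturation. Fibro-adipogenic progenitors (FAPs) are the resident mesenchymal cells of skeletal muscle, which can form fibroblasts and adipocytes. They were sorted by flow cytometry from the hind limb muscle of wild-type mice aged 4 to 5 months. The treated cells received C1q at 100 µg/ml (3 libraries), and the control cells received vehicle (3 libraries). C1q is the recognition component of the classical complement cascade. Bulk RNA-seq libraries started from 10 ng of RNA, amplified as cDNA with a SMART-Seq kit for low input. The labels give neither the length of treatment nor whether the libraries of a group came from separate animals or cultures, so every p-value measures only the spread between these libraries, which may be technical.

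SREBPs are transcription factors made as precursors in the membrane of the endoplasmic reticulum. When membrane sterol is low, the escort protein SCAP carries them to the Golgi, where proteases release the part that enters the nucleus. When sterol is plentiful, INSIG proteins hold SCAP and SREBP back. SREBP2 mainly drives genes of cholesterol synthesis and uptake, and SREBP1 mainly drives genes of fatty acid synthesis, with targets in common.

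The library totals were 24046020 to 31929119 reads with C1q and 5379209 to 38861152 with vehicle, of which vehicle library 3 was the shallowest. The fewest reads on any of the 31 genes in any library were 131, for Tm7sf2 in vehicle library 3. Markers of FAPs were abundant, with a summed normalised read count of 219467 to 245621 with C1q and 140692 to 158991 with vehicle. Of the 8 FAP markers 5 were higher and 1 was lower with C1q, against 19.7% higher and 18.7% lower over all genes. A label on RNA extraction names muscle stem cells in place of FAPs, and the stem cell marker Pax7 stood at 1.49 to 3.52 with C1q and 0 to 7.58 with vehicle. Among 8 markers of the muscle lineage, Pax7 included, 5 were lower with C1q (18.7% over all genes). Their summed count was 10734, 16057 and 13695 in C1q libraries 1 to 3, against 66636, 37436 and 17404 in vehicle libraries 1 to 3. The share of reads on 15 mitochondrial genes was 1.85% to 2.25% with C1q and 3.98% to 5.29% with vehicle.

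Of the 31 genes, 22 were lower and 0 were higher with C1q, here and throughout at a Benjamini-Hochberg adjusted p below 0.05 in limma-trend. The count of higher genes was 0 also at an unadjusted p below 0.05 and with edgeR or DESeq2. Over all genes 38.3% passed this threshold, 18.7% as lower and 19.7% as higher. In the same 22 genes every C1q library lay below every vehicle library, and over all genes 25.4% had that order. The median log2 fold change was -0.73 over the 31 genes and 0.03 over all genes. The enzymes of cholesterol synthesis made up most of the lower genes, with 18 of 18 called and a median of -1.0. Of the 5 regulators and transport proteins 1 was lower, and of the 8 fatty acid enzymes 3 were lower. Values are normalised read counts, and fold changes are C1q over vehicle on the scale of log2(value + 1), given with their SE. In bulk samples, fewer cells of a type and less RNA per cell cannot be told apart.

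**Figure D1:**
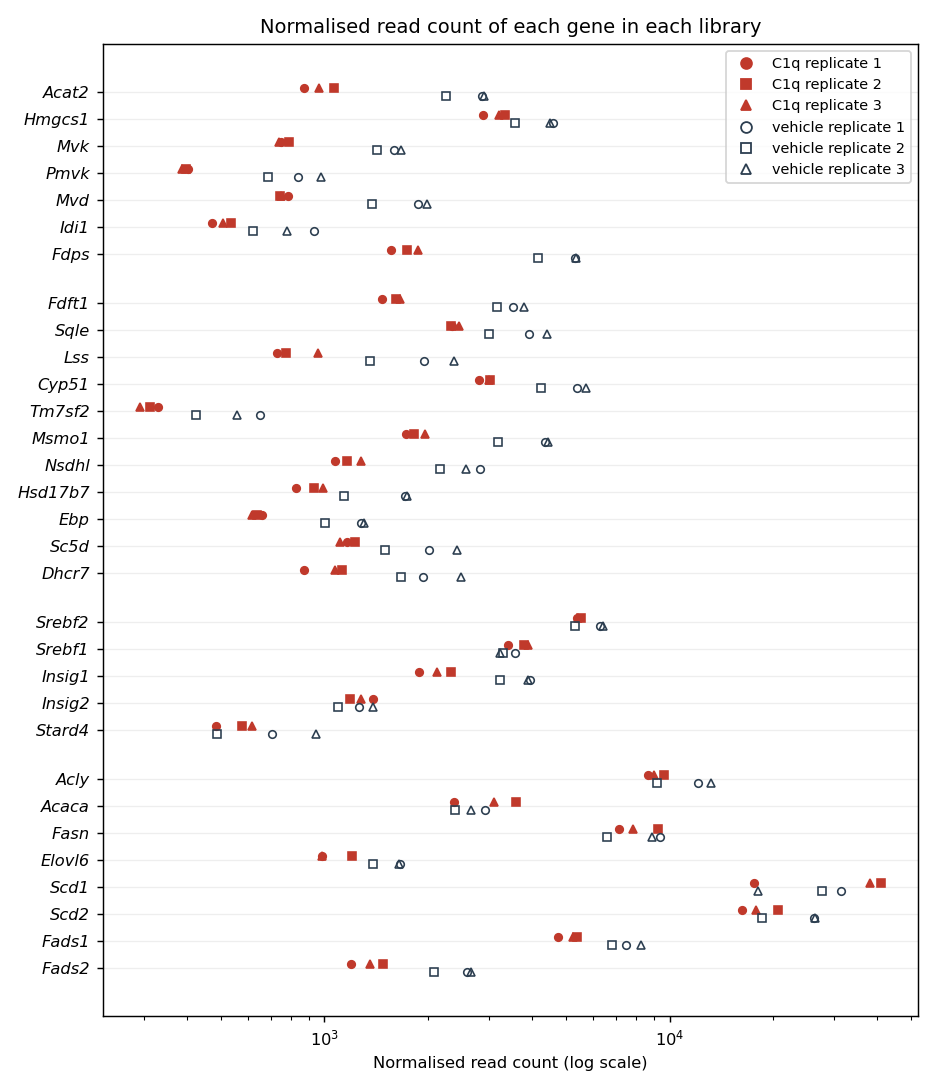
Normalised read count (log axis) of the 31 genes in each library, with filled red symbols for C1q and open symbols for vehicle, and the symbol shape giving the replicate. In the upper 2 blocks, the mevalonate and sterol enzymes, the filled symbols lie left of all open ones, while Srebf2, Srebf1, Insig2, Stard4, Acly, Acaca, Fasn, Scd1 and Scd2 overlap.

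The mevalonate steps build the isoprenoid units from which sterols are made, and all 7 enzymes measured here were lower with C1q, with a median log2 fold change of -1.06. The largest difference was in Fdps, whose product farnesyl diphosphate synthase makes the last intermediate shared by sterols and other isoprenoids. Its count was 1564, 1731 and 1861 in C1q libraries 1 to 3, against 5318, 4153 and 5369 in vehicle libraries 1 to 3. The lowest vehicle library was above 2 times the level of any C1q library, and Fdps was 2.86-fold lower (log2 fold change -1.52 ± 0.12, adjusted p = 0.000207). Acat2, the cytosolic thiolase that joins acetyl-CoA units at the start of the pathway, had 873, 1063 and 965 in C1q libraries 1 to 3, against 2859.9, 2252 and 2891 in vehicle libraries 1 to 3. Here too the lowest vehicle library was above 2 times the highest C1q library, and Acat2 was 2.75-fold lower (log2 fold change -1.46 ± 0.12, adjusted p = 0.000238). Mvk, which encodes mevalonate kinase, had 750.4, 787 and 740.4 in C1q libraries 1 to 3, against 1589, 1424 and 1666 in vehicle libraries 1 to 3. The counts in each group lay close together, and Mvk was 2.05-fold lower (log2 fold change -1.03 ± 0.08, adjusted p = 0.000204).

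Pmvk, the kinase that follows Mvk, had 404, 398 and 385 in C1q libraries 1 to 3, against 838, 684 and 978 in vehicle libraries 1 to 3, a difference of -1.06 ± 0.13 (adjusted p = 0.000785). Mvd, the decarboxylase that yields isopentenyl diphosphate, had 786, 744 and 747 in C1q libraries 1 to 3, against 1865, 1378 and 1977 in vehicle libraries 1 to 3, a difference of -1.18 ± 0.13 (adjusted p = 0.000596). In both genes the C1q libraries lay close together and the vehicle libraries were spread, with library 2 the lowest. The isomerase gene Idi1 and the synthase gene Hmgcs1 changed least. Idi1 had 472, 535 and 509 in C1q libraries 1 to 3, against 933, 619 and 778 in vehicle libraries 1 to 3, and was 1.52-fold lower (log2 fold change -0.60 ± 0.15, adjusted p = 0.0142). Hmgcs1, whose product makes hydroxymethylglutaryl-CoA, had 2875, 3333 and 3199 in C1q libraries 1 to 3, against 4595, 3574 and 4515 in vehicle libraries 1 to 3. Its highest C1q library stood just under its lowest vehicle library, and it was 1.34-fold lower (log2 fold change -0.42 ± 0.11, adjusted p = 0.0196). These were the only calls among the 18 enzymes lost when a library was left out. The adjusted p of Hmgcs1 was 0.0613 without vehicle library 1, 0.0755 without C1q library 1 and 0.0538 without C1q library 3, and that of Idi1 was 0.0552 without C1q library 1.

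The sequence just upstream of the transcript start is shown for 4 of these mevalonate genes, which were lower together, and for the fatty acid synthase gene Fasn, which was not called. The sequences are the 190 bases before the start in RefSeq (GRCm38.p6), printed 5′ to 3′ on the strand of the gene. Capitals mark every match, on either strand, to CCAAT, the core bound by NF-Y that reads ATTGG on the opposite strand, to GGGCGG, a core bound by Sp1 that reads CCGCCC on the opposite strand, and to the sterol regulatory element patterns TCACNCCAC and CACCCCAC.
Acat2 (chr17:12960726-12960915, minus strand): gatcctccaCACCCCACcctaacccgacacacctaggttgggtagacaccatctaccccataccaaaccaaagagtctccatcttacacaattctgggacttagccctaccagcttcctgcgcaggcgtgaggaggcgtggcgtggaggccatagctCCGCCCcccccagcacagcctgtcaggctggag
Hmgcs1 (chr13:119690161-119690350, plus strand): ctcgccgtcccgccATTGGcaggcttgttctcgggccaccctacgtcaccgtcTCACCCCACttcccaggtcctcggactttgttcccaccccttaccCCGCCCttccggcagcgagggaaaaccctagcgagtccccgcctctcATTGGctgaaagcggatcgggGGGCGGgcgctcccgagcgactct
Mvk (chr5:114444079-114444268, plus strand): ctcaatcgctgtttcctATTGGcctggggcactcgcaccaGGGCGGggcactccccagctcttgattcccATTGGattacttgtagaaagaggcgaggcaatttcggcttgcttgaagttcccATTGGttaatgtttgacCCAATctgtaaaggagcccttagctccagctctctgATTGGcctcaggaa
Mvd (chr8:122443423-122443612, minus strand): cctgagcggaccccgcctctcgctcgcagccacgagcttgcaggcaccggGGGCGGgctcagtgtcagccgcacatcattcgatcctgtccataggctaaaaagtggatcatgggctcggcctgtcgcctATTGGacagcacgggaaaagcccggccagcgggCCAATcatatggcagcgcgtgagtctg
Fasn (chr11:120824548-120824737, minus strand): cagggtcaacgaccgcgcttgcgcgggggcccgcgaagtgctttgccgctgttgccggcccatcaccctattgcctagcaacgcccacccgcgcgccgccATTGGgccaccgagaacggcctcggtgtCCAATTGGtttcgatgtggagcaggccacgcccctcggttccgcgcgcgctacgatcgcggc
Hmgcs1 carries TCACCCCAC, inside which CACCCCAC lies, between a pair of inverted CCAAT boxes, and Acat2 carries CACCCCAC. In Mvk and Mvd the capitals are CCAAT and GGGCGG alone, and in Fasn they are CCAAT boxes, of which a pair overlaps in CCAATTGG. The table of windows from 250 bases before to 50 after a start held 24 of the 31 genes; Fdps, Fdft1, Sqle, Stard4, Scd1, Scd2 and Fads1 were not among them. CCAAT was found in 20 of the 24 (83.3%), and in 42.3% of the 12371 measured genes with a window. GGGCGG was found in 20 of 24 (83.3%), against 65.0% of measured genes, and both together in 17 of 24 (70.8%), against 25.3%. Among the mevalonate and sterol enzymes 14 of 15 held CCAAT, and among the fatty acid genes 2 of 5 did. The genes lower with C1q and those not called held CCAAT in the same share, 15 of 18 and 5 of 6. TCACNCCAC was found in Hmgcs1 alone of the 24, and in 1.44% of measured genes. CACCCCAC was found in 2 of 24 (8.33%), against 3.84% of measured genes. Those 2 are Hmgcs1 and Acat2, both among the sequences shown, so these sequences are not typical of the 24. A match describes letters in a window and is not evidence of binding, and no match says only that these letters are not in it.

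All 11 enzymes of the squalene and sterol steps were lower with C1q, with log2 fold changes between -1.18 and -0.65 and a median of -0.90. Fdft1, squalene synthase, commits farnesyl diphosphate to sterols. It had 1469, 1610.1 and 1652 in C1q libraries 1 to 3, against 3515, 3161 and 3796 in vehicle libraries 1 to 3, and was 2.21-fold lower (log2 fold change -1.14 ± 0.09, adjusted p = 0.000204). Sqle, squalene epoxidase, a control point of the pathway, had 2347, 2332 and 2448 in C1q libraries 1 to 3, against 3926, 2991 and 4413 in vehicle libraries 1 to 3. The C1q libraries differed by 1.05 times from lowest to highest and the vehicle libraries by 1.48 times, and the difference was -0.65 ± 0.13 (adjusted p = 0.00722). Lss, which folds the squalene epoxide into lanosterol, had 727, 773 and 956 in C1q libraries 1 to 3, against 1942, 1357 and 2376 in vehicle libraries 1 to 3. It was the most variable of the 18 enzymes among vehicle libraries (1.75 times from lowest to highest), with the largest SE (log2 fold change -1.18 ± 0.20, adjusted p = 0.00317).

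Cyp51, which removes a methyl group from lanosterol, had 2798, 3026 and 2999 in C1q libraries 1 to 3, against 5396, 4229.9 and 5730.5 in vehicle libraries 1 to 3, 1.73-fold lower (log2 fold change -0.79 ± 0.11, adjusted p = 0.00166). Tm7sf2, a sterol reductase at the next step and the lowest count of the 31, had 330.5, 313 and 291 in C1q libraries 1 to 3, against 651, 424 and 557 in vehicle libraries 1 to 3, 1.72-fold lower (log2 fold change -0.78 ± 0.16, adjusted p = 0.00634). Neither gene had a C1q library within the vehicle range. Msmo1, Nsdhl and Hsd17b7 encode the oxidase, dehydrogenase and reductase that take off the remaining methyl groups. Msmo1 averaged 1831 ± 118 with C1q, against 3993 ± 706 with vehicle (SD, n = 3 each, log2 fold change -1.11 ± 0.13, adjusted p = 0.000732). Nsdhl averaged 1171 ± 100.2 with C1q, against 2520.2 ± 339 with vehicle (log2 fold change -1.10 ± 0.11, adjusted p = 0.000447). Hsd17b7 averaged 918 ± 83.0 with C1q, against 1531 ± 336 with vehicle and had the smallest gap of the 3, with C1q library 3 at 994 and vehicle library 2 at 1143 (log2 fold change -0.71 ± 0.16, adjusted p = 0.0116).

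The last steps to cholesterol gave the same picture. Ebp, the sterol isomerase, had 659, 637 and 615 in C1q libraries 1 to 3, against 1273, 1006 and 1301 in vehicle libraries 1 to 3 (log2 fold change -0.90 ± 0.11, adjusted p = 0.000752). Sc5d, the desaturase that follows, had 1163, 1230 and 1109 in C1q libraries 1 to 3, against 2009, 1500.3 and 2415 in vehicle libraries 1 to 3 (log2 fold change -0.73 ± 0.16, adjusted p = 0.00906). Dhcr7, the reductase that makes cholesterol from its direct precursor, had 872, 1121 and 1074 in C1q libraries 1 to 3, against 1926, 1668 and 2483 in vehicle libraries 1 to 3, and was 1.97-fold lower (log2 fold change -0.97 ± 0.16, adjusted p = 0.00251). In these 3 genes vehicle library 2 was the lowest vehicle library and still lay above all C1q libraries. Each of the 11 calls held under all 22 alternatives tried.

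**Figure D2:**
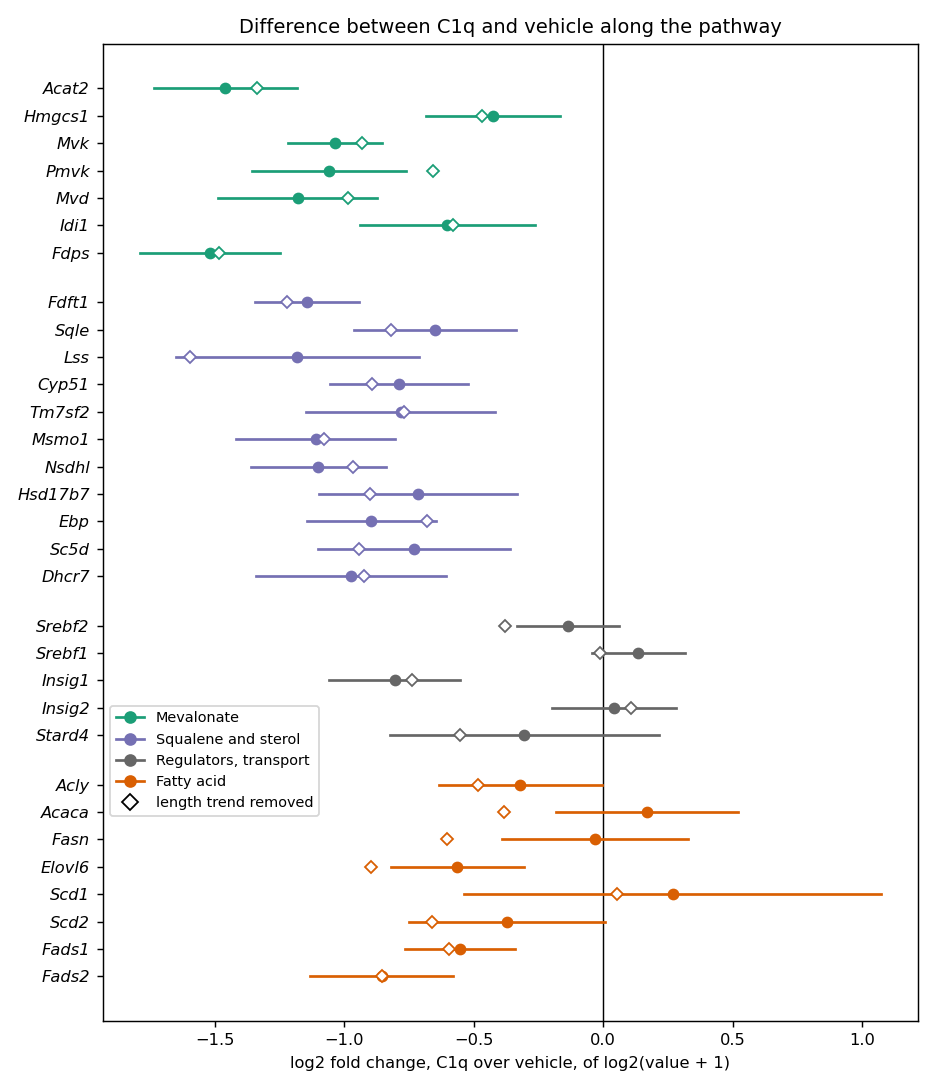
Log2 fold change (C1q over vehicle) of each gene in pathway order, with 95% confidence intervals from limma-trend; open diamonds give the value after a trend on transcript length was removed. The mevalonate and sterol enzymes lie between -1.52 and -0.42, and Insig1 alone of the regulators has an interval clear of 0. In the fatty acid branch the diamonds lie left of the points for every gene but Fads2, by little for Fads1.

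The genes that control the pathway did not move as a block. Insig1, which retains SCAP and is itself a sensitive SREBP target, had 1879.8, 2328 and 2119 in C1q libraries 1 to 3, against 3929, 3223 and 3902 in vehicle libraries 1 to 3. All C1q libraries were lower, by 1.75-fold (log2 fold change -0.80 ± 0.11, adjusted p = 0.00121). Srebf2, the gene of SREBP2, had 5401, 5527 and 5432 in C1q libraries 1 to 3, against 6300.1, 5329 and 6402 in vehicle libraries 1 to 3. The groups overlapped through vehicle library 2 alone, and the difference of -0.14 ± 0.08 (95% interval -0.33 to 0.06, adjusted p = 0.247) was not called. It was called at -0.22 without vehicle library 2 (adjusted p = 0.0327) and at -0.38 with the length trend described below removed (adjusted p = 0.00779).

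Srebf1, the gene of SREBP1, had 3406, 3788 and 3884 in C1q libraries 1 to 3, against 3578, 3285 and 3218 in vehicle libraries 1 to 3. The counts overlapped, with a difference of 0.14 ± 0.08 (95% interval -0.04 to 0.31, adjusted p = 0.207). Insig2, the second INSIG gene, which unlike Insig1 is not known as a strong SREBP target, had 1383, 1183 and 1278 in C1q libraries 1 to 3, against 1259.8, 1096 and 1386 in vehicle libraries 1 to 3. Its groups overlapped fully (log2 fold change 0.04 ± 0.10, adjusted p = 0.773). Stard4, a soluble sterol carrier, had 486, 576 and 615 in C1q libraries 1 to 3, against 705, 488 and 944 in vehicle libraries 1 to 3. Vehicle library 2 lay beside C1q library 1, vehicle library 3 stood 1.93 times above vehicle library 2, and the difference of -0.30 had an SE of 0.22 (adjusted p = 0.32). Stard4 was called at -0.55 without vehicle library 2 (adjusted p = 0.0360) and with the length trend removed together with the replicate block (adjusted p = 0.0350).

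In the fatty acid branch the desaturases of polyunsaturated fatty acids and the elongase Elovl6 were lower with C1q, and the core enzymes of palmitate synthesis were not called. Fads2 had 1195, 1476 and 1358 in C1q libraries 1 to 3, against 2581, 2072 and 2657 in vehicle libraries 1 to 3, and was 1.81-fold lower (log2 fold change -0.86 ± 0.12, adjusted p = 0.00131). Fads1, its partner at the later desaturation, had 4753, 5378 and 5260.2 in C1q libraries 1 to 3, against 7490, 6833 and 8294 in vehicle libraries 1 to 3, and was 1.47-fold lower (log2 fold change -0.55 ± 0.09, adjusted p = 0.00284). Elovl6, which extends palmitate, had 984, 1204 and 986 in C1q libraries 1 to 3, against 1653, 1381 and 1649 in vehicle libraries 1 to 3, and was 1.48-fold lower (log2 fold change -0.56 ± 0.11, adjusted p = 0.00567). In each of the 3 the groups were separate.

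Acly, which makes cytosolic acetyl-CoA from citrate for both branches, had 8652, 9611 and 9045 in C1q libraries 1 to 3, against 12063, 9195 and 13208 in vehicle libraries 1 to 3. Only vehicle library 2 fell among the C1q libraries, and the difference of -0.32 ± 0.13 was not called (adjusted p = 0.0993). Acaca, acetyl-CoA carboxylase, had 2374, 3584 and 3097 in C1q libraries 1 to 3, against 2929, 2395 and 2653 in vehicle libraries 1 to 3, with overlapping groups (log2 fold change 0.17 ± 0.15, adjusted p = 0.419). Fasn, fatty acid synthase, had 7118, 9266 and 7817 in C1q libraries 1 to 3, against 9392, 6597 and 8919 in vehicle libraries 1 to 3, again overlapping (log2 fold change -0.03 ± 0.15, adjusted p = 0.885). The 95% intervals of the log2 fold change were -0.18 to 0.52 for Acaca and -0.39 to 0.33 for Fasn. In this fit, falls as large as the median of the cholesterol enzymes lie outside them. The intervals do not cover the length trend described below. With it removed, Acaca stood at -0.38 and Fasn at -0.60, both also outside them.

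The stearoyl-CoA desaturases, which make monounsaturated fatty acids, were the most abundant of the 31 genes, and Scd1 was the least even among C1q libraries. Scd1 had 17527, 41100.4 and 37990 in C1q libraries 1 to 3, against 31311, 27654 and 18097 in vehicle libraries 1 to 3. C1q library 1 and vehicle library 3 stood apart as the low libraries of their groups, and the difference of 0.27 ± 0.35 was not called (adjusted p = 0.577). Adipoq, the adiponectin gene and an adipocyte marker, was lowest in the same 2 libraries, with 824, 2643 and 1765 in C1q libraries 1 to 3, against 1329, 2357 and 539.9 in vehicle libraries 1 to 3. The summed count of 5 adipocyte markers was 2586, 9008 and 5944 in C1q libraries 1 to 3, against 3016, 6192 and 1360.4 in vehicle libraries 1 to 3. None of the 5 was called by limma-trend in either direction, nor had any an unadjusted p below 0.05, and their part in the Scd1 values was not tested. Scd2 had 16241, 20577 and 17826 in C1q libraries 1 to 3, against 26227, 18552 and 26463 in vehicle libraries 1 to 3, with a difference of -0.37 ± 0.16 (adjusted p = 0.111). DESeq2 called Acly and Scd2 lower (adjusted p = 0.0449 and 0.0394), and both were called without vehicle library 2 (0.00711 and 0.0156), which makes 5 of 8 lower in place of 3.

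Transcript length bears on the comparison of the branches. Across the 14933 genes with an annotated length, fold change and length of the longest transcript had a Spearman correlation of 0.384, and across the 31 genes it was 0.591; genes share libraries and are not independent, so these are descriptions. The median longest transcript was 2998 nt for the 18 cholesterol enzymes, 5143.5 nt for the 8 fatty acid genes and 3339 nt over all genes. After a smooth trend on length was removed from every library, 27 of the 31 genes were lower, against 18.7% of all genes with a length. The cholesterol enzymes stayed at 18 of 18 lower with a median of -0.93. Of the fatty acid genes 7 of 8 were then lower, with a median of -0.60 in place of -0.35. Fasn stood at -0.60 (adjusted p = 0.00983), Acly at -0.48 (adjusted p = 0.026), Scd2 at -0.66 (adjusted p = 0.0138), and Acaca turned to -0.38 (adjusted p = 0.0453). Scd1 remained uncalled at 0.05 (adjusted p = 0.923). The share of fatty acid genes called therefore changed when this trend was removed, and the calls in cholesterol synthesis did not. The length used is that of the longest transcript of any kind. For Fdps it is 2953 nt, against 1382 nt for the longest coding transcript, and for Fasn both are 10050 nt. No trend on coding length was fitted, so whether the calls in cholesterol synthesis depend on that choice was not tested. The cause of the length trend was not tested.

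**Figure D3:**
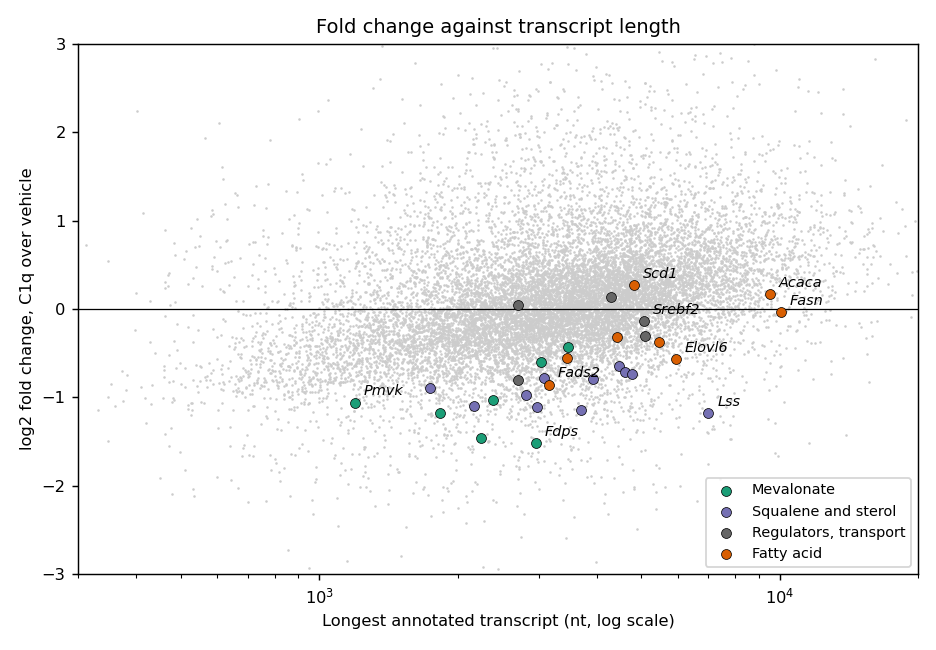
Log2 fold change (C1q over vehicle, axis limited to -3 to 3) against the length of the longest annotated transcript (log axis), with each of the other measured genes as a grey point. The grey cloud rises with length, the cholesterol enzymes (green and purple) lie at -0.42 or lower at all lengths from Pmvk (1194 nt) to Lss (6992 nt), and the long fatty acid genes Acaca (9513 nt) and Fasn (10050 nt) lie near 0.

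Per length, in RPKM (reads scaled to the length of the longest coding transcript and to the library total), the order of levels differed between the groups. Scd1 was the highest of the 31, at 292 ± 114 with C1q and 234 ± 63.3 with vehicle (mean ± SD, n = 3 each). Scd2 came next, at 147 ± 14.3 with C1q and 192 ± 35.8 with vehicle. Fdps stood at 54.7 ± 5.19 with C1q and 158 ± 21.5 with vehicle, below Acly and Fads1 in C1q libraries and above both in vehicle libraries. Acly was at 90.4 ± 3.09 with C1q and 114 ± 20.1 with vehicle, and Fads1 at 65.2 ± 3.72 with C1q and 95.9 ± 8.81 with vehicle. Among the sterol enzymes Msmo1 and Sqle had the highest levels, Msmo1 at 39.4 ± 3.03 with C1q and 86.0 ± 15.0 with vehicle and Sqle at 37.9 ± 1.88 with C1q and 60.2 ± 11.3 with vehicle. Tm7sf2, Hsd17b7 and Lss were the lowest enzymes of that branch with C1q, at 9.15 ± 0.575, 8.76 ± 0.848 and 7.73 ± 1.27, and did not differ from each other beyond their spread. Of the 2 SREBP genes Srebf2 had the higher level, at 47.3 ± 0.789 with C1q and 52.1 ± 4.98 with vehicle, and Srebf1 stood at 37.8 ± 2.68 with C1q and 34.4 ± 2.09 with vehicle. Stard4 had the lowest level, at 4.83 ± 0.588 with C1q and 6.14 ± 1.93 with vehicle.

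The genes varied together between libraries of a group. Vehicle library 2 was the lowest vehicle library in 29 of the 31 genes and in 18 of 18 cholesterol enzymes, against 31.3% of all genes. Vehicle library 3 was the highest in 21 of 31, against 36.0% of all genes. Relative to the vehicle mean, the median of the 18 enzymes stood at -1.04, -0.94 and -0.95 in C1q libraries 1 to 3, against 0.11, -0.27 and 0.15 in vehicle libraries 1 to 3 (log2). The median of the fatty acid genes stood at -0.52, -0.21 and -0.36 with C1q, against 0.12, -0.20 and 0.13 with vehicle. For the enzymes the gap between groups was thus larger than the spread in either group, and for the fatty acid genes C1q library 2 met vehicle library 2. In C1q libraries, library 1 was the lowest and library 2 the highest in all 8 fatty acid genes. The summed adipocyte markers had the same order among C1q libraries (2586, 9008 and 5944). Among vehicle libraries these markers were highest in library 2, which was the lowest in 7 of the 8 fatty acid genes. The part of adipocyte markers in the fatty acid genes was not tested. The summed muscle-lineage markers were highest in vehicle library 1 and lowest in vehicle library 3, another order than that of the cholesterol enzymes. Between groups both were lower with C1q, the marker sum at 10734 to 16057 against 17404 to 66636 with vehicle. The part of the muscle-lineage markers in the difference between groups was not tested.

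Other genes of sterol synthesis, from a list of 6, were lower in 3 cases and higher in 0. The shares over all genes were 18.7% lower and 19.7% higher. Erg28, a scaffold of the demethylating enzymes, had 755, 833 and 745 in C1q libraries 1 to 3, against 1582, 1297 and 1909 in vehicle libraries 1 to 3. The groups were separate, and Erg28 was 2.03-fold lower (log2 fold change -1.02 ± 0.14, adjusted p = 0.00114). Lbr and Cyb5b were lower by less (-0.30 and -0.34, adjusted p = 0.0392 and 0.0114), and Cyb5r3, Por and Idi2 were not called. The Lbr call was lost when vehicle library 2 or 3 or any C1q library was left out (adjusted p 0.0520 to 0.129), with DESeq2 (0.0587) and with libraries thinned to equal depth (0.230), and that of Cyb5b without C1q library 1 (0.0520). No gene of this list was higher at an unadjusted p below 0.05.

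Of 13 genes of cholesterol uptake, trafficking and esterification, 3 were lower and 3 higher. These shares are near the 18.7% lower and 19.7% higher over all genes. Tmem97, a sterol-binding membrane protein, had 489.7, 562 and 533 in C1q libraries 1 to 3, against 1045, 1001 and 1190.3 in vehicle libraries 1 to 3, 2.04-fold lower with no overlap (log2 fold change -1.03 ± 0.09, adjusted p = 0.000322). Npc2, which binds cholesterol in lysosomes, and Scarb1, a lipoprotein receptor, were lower (-0.67 and -0.71, adjusted p = 0.000564 and 0.0089). Mylip, a ubiquitin ligase and a target of the sterol-sensing LXR receptors, had 1003, 1095 and 1009 in C1q libraries 1 to 3, against 626, 609 and 608 in vehicle libraries 1 to 3, 1.68-fold higher (log2 fold change 0.75 ± 0.07, adjusted p = 0.000329). Lrp1 and Gramd1c were also higher (0.63 and 1.28, adjusted p = 0.0128 and 0.0062). Lrp1 was at -0.0077 with the length trend removed, and its adjusted p was 0.0509 without C1q library 1. Gramd1c was not called with libraries thinned to equal depth (adjusted p = 0.0757). Npc1, the lysosomal cholesterol exporter, was not called (log2 fold change -0.01 ± 0.10, adjusted p = 0.953), but stood at -0.33 with the length trend removed (adjusted p = 0.0237). That fit gave 5 lower and 2 higher of the 13.

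From 10 genes of SREBP escort, proteolysis and protein turnover 3 were higher and 1 lower, a share close to the 38.3% called over all genes. With the length trend removed 1 was higher and 1 lower. Scap had 2975, 2812 and 2685 in C1q libraries 1 to 3, against 2527, 2333 and 2589 in vehicle libraries 1 to 3, separate groups with a difference that was not called (log2 fold change 0.19 ± 0.07, adjusted p = 0.0733, and 0.0403 with a trend on GC content removed). Mbtps1 and Mbtps2 encode the Golgi proteases of SREBP. Mbtps1 was at 0.26 ± 0.09 (adjusted p = 0.0519), called higher in 4 of 22 alternatives, among them the replicate block (0.0211), and turned to -0.14 with the length trend removed (adjusted p = 0.274). Mbtps2 was at 0.39 ± 0.10 (adjusted p = 0.0189). The Mbtps2 call was lost in 8 of 22 alternatives, leaving out any library but vehicle library 3 among them (0.0519 to 0.0696). Rnf139 and Erlin2, which act in protein turnover at the endoplasmic reticulum, were higher (0.42 and 0.47, adjusted p = 0.00293 and 0.00306, with 0.0549 for Erlin2 once the length trend was removed and 0.0696 for Rnf139 at 0.20 once a trend on GC content was removed), and Syvn1, an endoplasmic reticulum ubiquitin ligase, was lower (-0.31, adjusted p = 0.00498).

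Other branches leave the pathway at farnesyl diphosphate. Of 11 genes of non-sterol isoprenoids 3 were higher and 1 was lower, close to the 38.3% called over all genes, and with the length trend removed 3 were higher and 0 lower. Ggps1, which makes geranylgeranyl diphosphate from the product of Fdps, had 976, 958 and 938 in C1q libraries 1 to 3, against 573, 583 and 667 in vehicle libraries 1 to 3, 1.58-fold higher (log2 fold change 0.66 ± 0.08, adjusted p = 0.000818). Fnta, the subunit shared by a pair of prenyl transferases, was higher (0.29, adjusted p = 0.00786), as was Pggt1b (0.55, adjusted p = 0.031), and Rabggtb was lower (-0.36, adjusted p = 0.0189). The Fnta call was lost with a trend on GC content removed, and those of Pggt1b and Rabggtb with the length trend removed. Both were lost with libraries thinned to equal depth (adjusted p 0.0769 for Pggt1b and 0.0643 for Rabggtb). Pggt1b was also lost with the GC trend removed (0.106) and without any library but vehicle library 3 (0.0657 to 0.110), and Rabggtb without vehicle library 1, C1q library 1 or C1q library 2 (0.0507 to 0.0744).

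Of 25 other fatty acid and glycerolipid genes 11 were lower and 3 higher, against 18.7% lower and 19.7% higher over all genes. Hsd17b12, the ketoacyl reductase of fatty acid elongation, had 1119.6, 1261 and 1155 in C1q libraries 1 to 3, against 2498, 2075 and 2474 in vehicle libraries 1 to 3 (log2 fold change -0.99 ± 0.09, adjusted p = 0.000337). Slc25a1, the mitochondrial citrate carrier that feeds Acly, had 2568, 2622 and 2541 in C1q libraries 1 to 3, against 4462, 3906 and 4251 in vehicle libraries 1 to 3 (log2 fold change -0.70 ± 0.07, adjusted p = 0.000388). Elovl1 and Elovl5, elongases of very long and polyunsaturated chains, were lower (-0.65 and -0.51, adjusted p = 0.000325 and 0.00672). Lpin1, a phosphatidate phosphatase, was lower by -0.30 (adjusted p = 0.0333, and 0.0660 to 0.104 without vehicle library 1, vehicle library 2, C1q library 1 or C1q library 3, and 0.156 with libraries thinned to equal depth). Acss2 and Me1, which supply acetyl-CoA and NADPH, were not called (-0.29 and 0.18, adjusted p = 0.25 and 0.192), and Acss2 was called at -0.50 without vehicle library 2 (adjusted p = 0.0102). The 3 higher genes were Acacb, Gpam and Thrsp, at 1.14, 0.96 and 1.92 (adjusted p = 0.000745, 0.00121 and 0.0291). Acacb and Gpam were called in all 22 alternatives, at 0.62 to 1.23 and 0.61 to 1.08. The Thrsp call was lost without C1q library 2 (0.105) or 3 (0.0838), with limma-voom (0.0600) and with libraries thinned to equal depth (0.14).

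**Figure D4:**
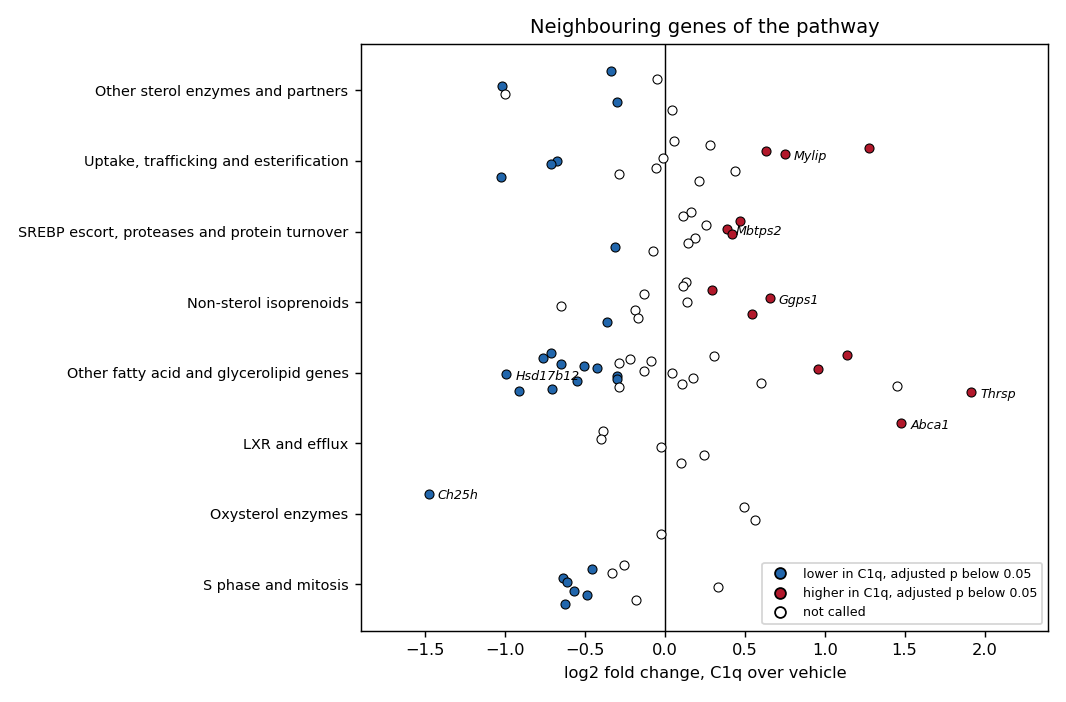
Log2 fold change (C1q over vehicle) of the genes of 8 lists around the pathway, a point per gene, blue where lower, red where higher and white where not called at adjusted p below 0.05. Sterol enzymes and S-phase genes hold blue points and no red, SREBP escort genes and isoprenoid genes hold 3 red and 1 blue each, and Abca1 is the only coloured point of its list.

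Genes of sterol efflux are driven by LXR receptors, which oxysterols activate. Abca1, the main cellular pump for cholesterol efflux, had 4081, 4504 and 3794 in C1q libraries 1 to 3, against 1330.3, 1408 and 1713 in vehicle libraries 1 to 3. All C1q libraries were higher, by 2.79-fold (log2 fold change 1.48 ± 0.11, adjusted p = 0.000196). Abca1 was called in all 22 alternatives, at log2 fold changes of 0.90 to 1.59. It was the only call among 6 genes of LXR and efflux, against 38.3% called over all genes. With the length trend removed 3 of the 6 were higher, against 2184 of 14933 genes. Nr1h3, the gene of an LXR receptor, was at 0.24 ± 0.14 (adjusted p = 0.203, and called at 0.41 with the length trend removed, adjusted p = 0.0402), and Apoe, also an LXR target, at -0.40 ± 0.22 (adjusted p = 0.196, and 0.0105 with the replicate block). Ch25h, which makes an oxysterol that blocks SREBP processing, had 20.4, 16.6 and 17.2 in C1q libraries 1 to 3, against 66.4, 54.8 and 38.3 in vehicle libraries 1 to 3 (log2 fold change -1.48 ± 0.28, adjusted p = 0.00499). These counts rest on 9 to 114 reads per library, and the call was lost with libraries thinned to equal depth (adjusted p = 0.110). Cyp27a1 and Cyp46a1, which make other oxysterols, were not called (0.50 and 0.56, adjusted p = 0.302 and 0.155).

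Genes of S phase and mitosis were lower in 6 of 10 cases and higher in 0 by limma-trend, against 18.7% and 19.7% over all genes. With the length trend removed 8 of the 10 were lower and 0 higher, against 18.7% lower of all genes with a length. Tyms, thymidylate synthase, averaged 248 ± 19.8 with C1q, against 383 ± 32.6 with vehicle (log2 fold change -0.62 ± 0.11, adjusted p = 0.00356). Pcna, the sliding clamp of DNA polymerase, averaged 699 ± 38.4 with C1q, against 1042 ± 143 with vehicle (log2 fold change -0.57 ± 0.11, adjusted p = 0.00542). Rrm2, a subunit of ribonucleotide reductase, averaged 347 ± 32.0 with C1q, against 485 ± 26.3 with vehicle (log2 fold change -0.49 ± 0.10, adjusted p = 0.00704). The proliferation marker Mki67 was not called and stood on the other side (0.33, adjusted p = 0.0810), the only gene of the list higher at an unadjusted p below 0.05. Whether these genes and the cholesterol enzymes share a cause was not tested.

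Some reads of the 31 genes may belong to other genes. Annotated exons on the opposite strand overlap Hmgcs1, Idi1, Fdft1, Lss, Cyp51, Srebf1 and Elovl6, and no source used here states whether counting used strand, so their reads cannot be told apart from those of the overlapping genes. Annotated exons on the same strand overlap Fdps (Gm43738) and Tm7sf2 (Vps51), the microRNA genes Mir6922 and Mir5114 lie on exons of Srebf1 and Scd2, and how shared reads were counted is not given in the sources used here. Vps51 was not called, with 576 to 649 in C1q libraries and 587 to 649 in vehicle libraries. Acat2 shares 1477 nt at 97.7% identity with Acat3, whose own count was 21.4 to 39.6 with C1q and 24.7 to 59.5 with vehicle, and 445 nt at 98.7% identity with Tcp1, whose count was 3514 to 3665 with C1q and 4472 to 5191 with vehicle and which was itself lower (log2 fold change -0.40, adjusted p = 0.0046). Acaca, Elovl6, Fdft1, Hmgcs1 and Idi1 have stretches of at least 300 nt at 95% identity or more in other gene models. For Fdft1 these include Ctsb, the gene that overlaps it on the opposite strand, over 774 nt at 100% identity. Scd2 has such a stretch in Scd1, over 623 nt.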

How the data were processed

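The deposited table gives a normalised signal per gene, labelled counts in its header: read counts divided by a size factor per library by the authors. The submitters' processing notes name Trimmomatic, HISAT2, featureCounts, DESeq2 and the build mm10; no source used here gives a version or says whether counting used strand. All values (100%) were whole multiples of 1 read within 0.001, so reads were recovered. Symbols came from RefSeq (GRCm38.p6; 16077 of 16671 gene IDs matched), transcript lengths from GENCODE of the same assembly.

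The test was limma-trend (limma 3.58.1, R 4.3.3) on log2(value + 1) of all 6 libraries with a minimum mean of 1, which removed 0 genes, and Benjamini-Hochberg adjustment over all genes; the script was tested on simulated data. Count alternatives used edgeR 4.0.16 and DESeq2 1.42.0 on recovered reads. Others changed the pseudocount (0.5 or 5) or filter, used array weights, left out each library, thinned libraries to 5379209 reads, or removed a loess trend on transcript length or GC content (span 0.5, fitted where the mean reached 20). Precision is limited by 3 libraries per group and, for low counts, by the depth of vehicle library 3, where 1 read is worth 4.25 units. Replicates differed by more than sampling noise (chi-square per degree of freedom 16.7 to 40.7).

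Same-numbered libraries deviated together weakly (r = 0.123, 0.175 and 0.132 over all genes, each above 0.1). Pairs of C1q and vehicle libraries with different numbers had r from -0.132 to 0.00485. The labels give no pairing, and these small values do not settle whether the libraries are paired. Among the 31 genes, library 2 was the lowest vehicle library in 29 and the highest C1q library in 17. The main test used no pairing, and the replicate block, which pairs libraries by number, was an alternative fit. The genes and lists were chosen with earlier results of these data known. All 31 pathway genes are named, with the 3 lowest p-values of each neighbouring list and 11 genes listed by name; 4 further genes of these lists are not reported here and were left out of the list counts; Lbr, Cyb5b, Scarb1, Lrp1, Gramd1c, Pggt1b, Acacb, Gpam, Thrsp and Mki67 were named after their values were seen. No test compares the branches. The leukocyte marker Ptprc was not analysed here. No endothelial (5) or leukocyte (5) marker was called. Higher with C1q were 3 of 4 mural and 2 of 4 Schwann cell markers, against 19.7% of all genes.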

Additional observations from a re-analysis of the deposited data

How the results depend on the processing

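The count of the 31 genes called lower was 22 to 28 in the 16 alternatives that kept every library, and 20 (without C1q library 1) to 26 (without vehicle library 2) with 1 left out; 0 were higher in any. The 18 cholesterol enzymes were all called in each alternative with every library. The fatty acid genes depend most on processing: 3 of 8 were lower, 5 with DESeq2, 7 with the length trend removed and 7 with the length trend removed together with the replicate block, and 3 to 5 with a library left out. Under both length fits Acaca turned to -0.38, and the median of the branch to -0.60. Lrp1 reversed to -0.0077 under both. With the replicate block alone, 22 of the 31 genes were lower and 6833 genes were called in all; it changed no call among the 31, and Mbtps1 and Apoe became called. The causes were not tested. The shallowest library limits genes with few reads, such as Ch25h, more than the 31.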
